A study of Homo sapiens with 6 samples.

Results

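The genes described here code for histones: the replication-dependent core histones H2A, H2B and H4, the linker histones H1, and the H2A variants H2AX, H2AZ1 and H2AZ2. They were the genes with a symbol of these families on an expression array, read from transcript clusters (the array's unit for 1 gene locus) annotated to that symbol alone, with the brightest cluster kept per gene. This gave 42 of the 22465 genes measured: 9 H1, 9 core H2A, 15 core H2B and 2 H4 genes, 3 H2A variants, 3 pseudogenes and H1-10-AS1, an RNA antisense to H1-10. No H3 gene was among them, since each cluster for H3.1, H3.2 or H3.3 carried the symbols of several near-identical genes. Those clusters are described by family further on.

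The cells were MDA-MB-231, a triple-negative breast cancer line, transduced with a lentivirus that carried a tagged DAXX cDNA behind the CMV immediate early promoter. DSM OE cells overexpressed DAXX with its SUMO-interacting motifs disabled, so that it no longer binds SUMO, and DAXX OE cells overexpressed wild-type DAXX, with 3 arrays per group. All cells kept their own DAXX gene, were selected in puromycin at 2 µg/mL and were cultured for 24 h in complete DMEM. Each construct was represented by a single derived cell line, and vector control and DAXX knockdown cells were not analysed here. The study's methods speak of biological replicates for gene expression assays in general, and the labels do not say whether the 3 arrays of a group came from separate cultures, so p-values measured only the spread between these arrays, which may be technical. Where RNA of bulk cells is measured, fewer cells in S phase and less histone RNA per cell cannot be told apart.

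Histones pack DNA into nucleosomes, each with H2A, H2B, H3 and H4 in its core and often an H1 at the linker DNA. Replication-dependent histone genes lie in clusters, are copied mainly in S phase and give mRNAs that end in a stem-loop bound by SLBP in place of a poly(A) tail. Variants such as H2A.Z and H3.3 are made throughout the cell cycle and enter chromatin through dedicated chaperones, and DAXX with ATRX is such a chaperone for H3.3. The comparison therefore asked whether the genes for histones themselves differed between cells with the SUMO-binding mutant and cells with wild-type DAXX.

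Promoters are shown for the genes that the results turn on: H2AC21, the single histone gene past the threshold in any fit; H2AC13, a core H2A gene that read higher in DSM OE cells, with its near copy H2AC14; H2BC15, the widest difference; and the variant gene H2AZ2. Each runs from 250 bases before to 50 bases after the RefSeq start on GRCh38.p14, 5′ to 3′ on the gene's strand, and capitals mark the core promoter element TATAAA, the activator element CCAAT and the octamer ATTTGCAT, which POU2F1 binds, on either strand; where elements overlap, the capitals run together.
H2AC21 (chr1:149887916-149888215, minus strand): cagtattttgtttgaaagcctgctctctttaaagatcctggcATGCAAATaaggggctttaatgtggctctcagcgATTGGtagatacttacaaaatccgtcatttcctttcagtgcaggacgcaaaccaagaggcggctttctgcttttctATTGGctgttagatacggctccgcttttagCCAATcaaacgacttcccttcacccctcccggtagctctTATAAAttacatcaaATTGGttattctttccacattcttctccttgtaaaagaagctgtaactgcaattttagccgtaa
H2AC13 (chr6:27807923-27808222, plus strand): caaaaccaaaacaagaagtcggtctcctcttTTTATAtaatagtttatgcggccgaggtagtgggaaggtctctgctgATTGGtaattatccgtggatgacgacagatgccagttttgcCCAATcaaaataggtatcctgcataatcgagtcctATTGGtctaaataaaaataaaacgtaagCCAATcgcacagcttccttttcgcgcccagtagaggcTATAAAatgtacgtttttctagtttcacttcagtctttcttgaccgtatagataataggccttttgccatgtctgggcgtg
H2AC14 (chr6:27814728-27815027, minus strand): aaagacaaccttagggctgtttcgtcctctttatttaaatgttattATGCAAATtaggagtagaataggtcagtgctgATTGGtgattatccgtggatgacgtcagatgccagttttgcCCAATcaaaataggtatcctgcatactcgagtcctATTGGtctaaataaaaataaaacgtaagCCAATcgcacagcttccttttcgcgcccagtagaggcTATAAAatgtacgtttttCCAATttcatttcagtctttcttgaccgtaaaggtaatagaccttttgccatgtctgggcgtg
H2BC15 (chr6:27838319-27838618, plus strand): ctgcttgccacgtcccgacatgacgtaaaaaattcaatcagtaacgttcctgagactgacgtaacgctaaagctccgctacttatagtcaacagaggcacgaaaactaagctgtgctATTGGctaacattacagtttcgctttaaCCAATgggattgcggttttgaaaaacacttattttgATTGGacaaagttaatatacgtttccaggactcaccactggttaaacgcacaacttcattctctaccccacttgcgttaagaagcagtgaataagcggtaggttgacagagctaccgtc
H2AZ2 (chr7:44848038-44848337, minus strand): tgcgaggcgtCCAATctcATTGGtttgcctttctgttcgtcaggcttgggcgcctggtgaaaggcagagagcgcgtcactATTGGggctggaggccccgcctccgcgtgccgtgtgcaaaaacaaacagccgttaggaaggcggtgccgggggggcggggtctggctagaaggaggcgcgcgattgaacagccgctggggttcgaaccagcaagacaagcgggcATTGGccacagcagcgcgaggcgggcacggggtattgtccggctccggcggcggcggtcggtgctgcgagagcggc

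A promoter was listed for 36 of the 42 genes. CCAAT stood in 34 of these 36 windows, in 8 of 8 core H2A and 15 of 15 core H2B genes, against 34.6% of all 35116 promoter windows. TATAAA stood in 23 of the 36, against 11.5% of all windows. The octamer stood in 6 of 8 core H2A and 11 of 15 core H2B windows, in 0 of 9 H1 and 0 of 3 variant windows, and in 1.77% of all windows. Windows of H2A and H2B genes that start back to back overlap, so a single site can count in both classes, for each element. The octamer was the same site in H2AC20 and H2BC21, in H2AC1 and H2BC1, and in H2AC14 and H2BC14. H2AC21 carried its TATAAA 29 bases and its octamer 208 bases before the start, while H2BC15 had neither set of letters in this window. H2AC13 and H2AC14 were identical at 252 of 300 positions when aligned on their starts without gaps, against a median of 81.0 positions over the 253 pairs of core H2A and H2B genes and 136 in the next pair.

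Of the 6 arrays, DAXX OE replicate 1 stood apart, with correlations to the others between 0.973 and 0.980 over all genes, against 0.996 or more among the other 5. Its signals (log2 values after RMA, a normalisation across arrays) were compressed: genes of high signal read lower on it and genes of low signal higher. Among the histone genes, 19 of the 20 with a signal over 7 were below the mean of DAXX OE replicates 2 and 3 on this array, by a median of -0.23 (all such genes, -0.32), whereas 10 of the 15 between 5 and 7 were above it, by a median of 0.15 (all genes, 0.22). The main counts are therefore given with and without this array. Signals were read against 23 background probe sets, whose median was between 4.26 and 4.46 per array: 36 histone genes were above it on all arrays, H2AC1 on some, and H1-3, H1-5, H2AC14, H2BC1 and H4C7 on none, so for these last 5 neither a fold nor a size of difference is given. They stay in the counts over 42 genes, and the plots of differences leave them out. Markers of the line were present, with AXL at 11.79 and 11.85 and ZEB1 at 9.44 and 9.42 in DSM OE and DAXX OE cells, and PGR, a luminal receptor, was at 3.57 and 3.73. None of 9 mesenchymal markers was called (median difference -0.01), with SNAI2 at 8.31 and 8.55, CAV1 at 9.50 and 9.64 and LOX at 9.30 and 9.09 in DSM OE and DAXX OE cells, and none of 9 luminal and receptor markers (median 0.07), with KRT19 at 9.58 and 9.23, EPCAM at 7.84 and 7.50 and CDH1 at 5.48 and 5.64. Blood and endothelial markers moved in either direction without a call: 5 of 6 were lower in DSM OE cells, with PTPRC at 4.42 and 4.57, CDH5 at 6.32 and 6.62, and CD14, the higher one, at 6.23 and 5.95. DAXX itself, as a sum of the cell's own gene and the construct, averaged 9.34 ± 0.03 in DSM OE and 8.86 ± 0.16 in DAXX OE cells (SD, n = 3 each), a difference of 0.49 with an adjusted p of 0.416 (limma), and of 0.40 with an adjusted p of 0.0144 without DAXX OE replicate 1. With the mean of its clusters in place of the brightest, the DAXX difference was 0.29 (adjusted p 0.666, limma). After quantile normalisation it was 0.38 (adjusted p 0.101, limma).

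**Figure D1:**
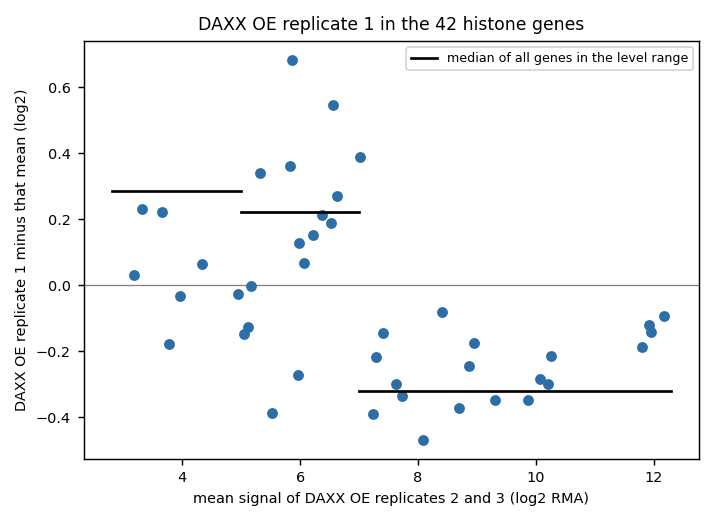
Signal on DAXX OE replicate 1 minus the mean of DAXX OE replicates 2 and 3 (log2), against that mean, for the 42 histone genes (points); black lines give the median over all genes in 3 ranges of signal. Of the 20 histone genes over 7, 19 lie below 0, while 10 of 15 between 5 and 7 lie above it.

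No histone gene differed between DSM OE and DAXX OE cells past the threshold: 0 of 42 had an adjusted p under 0.05 with limma, against 0.0623% of all genes, and the lowest adjusted p was 0.682. The 42 differences (DSM OE minus DAXX OE, log2) had a median of -0.02, between -0.25 and 0.33, against a median of 0.01 over all genes, with 17 above 0 and 25 below. The median over all genes depended on signal. Over a signal of 7 it was 0.10, against -0.02 for the 20 histone genes there. Between 5 and 7 the medians were -0.07 for all genes and -0.04 for histone genes, and under 5 they were -0.09 and -0.05. At the study's thresholds of a fold over 1.3 and an unadjusted p under 0.05, 0 of 42 histone genes and 2.25% of all genes passed. At an unadjusted p under 0.05 alone, 3 histone genes were higher in DSM OE cells (H2AC13, H2AC14 and H2BC15), against 3.77% of all genes, and 3 were lower (H1-1, H2AC21 and H2BC1), against 1.38%. The arrays of the groups did not overlap for 3 histone genes in the higher direction (13.7% of all genes) and for 5 in the lower direction (5.5%). The 5 were H1-1, H2AC21 and H2BC1 with H1-8 and H2BC26.

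The precision allowed a bound on the difference between the groups for many of the genes. Like the p-values, the intervals measured only the spread between these arrays of a single derived line per construct. The 95% interval of the difference lay within 1.3-fold in either direction for 24 of 42 histone genes, against 46.3% of all genes, and for 35 of 42 without DAXX OE replicate 1, against 90.9%. The bound farthest from 0 was 0.65 on the log2 scale, the upper bound for H2BC15. Of the 37 genes above background on at least 1 array, 22 had their interval within 1.3-fold, and 14 differences were above 0 and 23 below (median -0.02). Their groups did not overlap for 2 in the higher and 4 in the lower direction (13.7% and 5.5% of all genes).

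**Figure D2:**
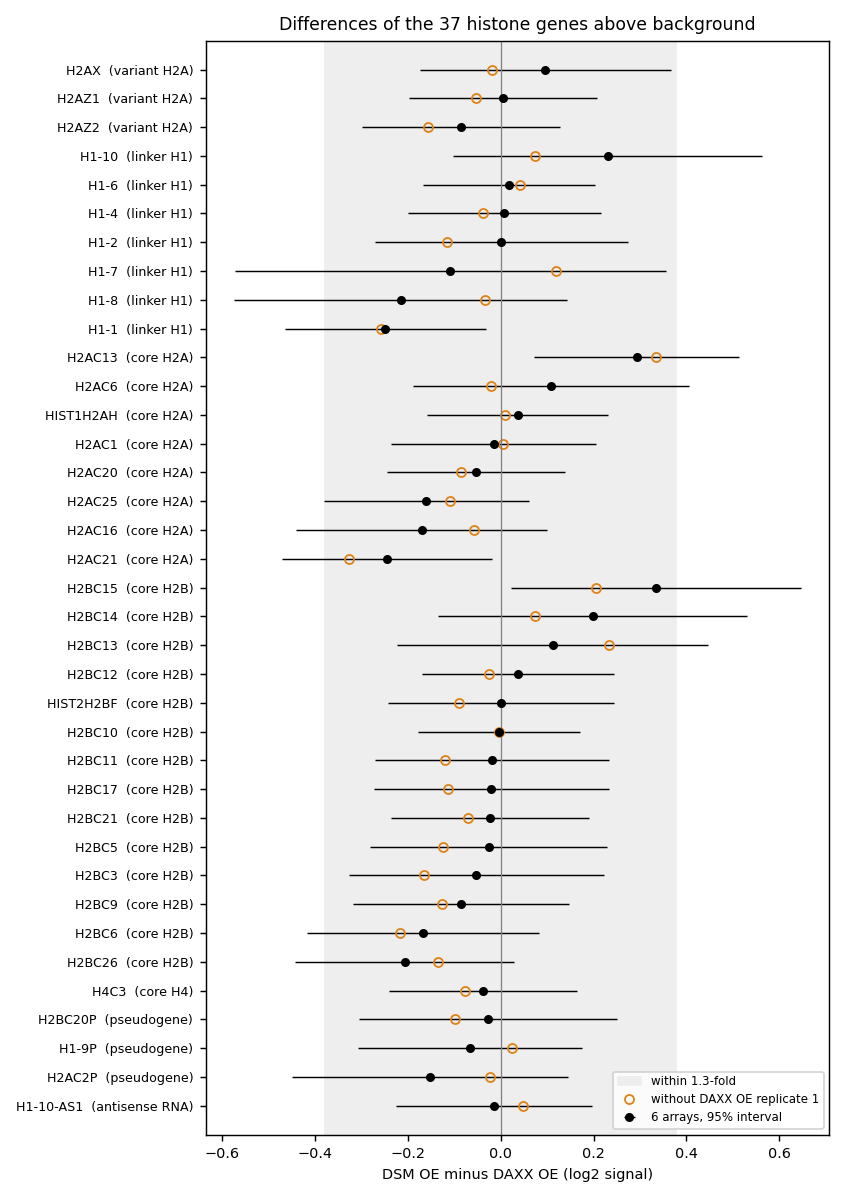
Difference between DSM OE and DAXX OE cells (log2 signal) for the 37 histone genes above background by class, with 95% intervals over 6 arrays (black) and without DAXX OE replicate 1 (open orange points); the grey band marks changes within 1.3-fold. The differences run from -0.25 (H1-1) to 0.33 (H2BC15), and 22 of the 37 intervals lie inside the band.

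The 3 variant genes differed between DSM OE and DAXX OE cells by -0.09 to 0.10, with no call. H2AX, whose protein is phosphorylated around DNA breaks, was at 9.84, 9.83 and 9.85 in DSM OE and at 9.51, 9.80 and 9.91 in DAXX OE arrays. The DSM OE values fell inside the DAXX OE range, and the difference was 0.10 (SE 0.12, 95% interval -0.17 to 0.37). H2AZ1, which codes for H2A.Z found at promoters and enhancers, was at 8.90, 8.86 and 8.91 in DSM OE and at 8.77, 8.96 and 8.93 in DAXX OE arrays, with an interval from -0.20 to 0.21. H2AZ2, which codes for a second form of H2A.Z, was at 10.08, 10.11 and 10.13 in DSM OE and at 10.05, 10.27 and 10.25 in DAXX OE arrays. For this gene the lowest array was DAXX OE replicate 1 and the other DAXX OE arrays were the highest, so that its difference was -0.09 (interval -0.30 to 0.13) over 6 arrays and -0.16 (interval -0.25 to -0.06, adjusted p 0.138 with limma) without that array. The intervals of these 3 genes lay within 1.3-fold in both fits.

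Core H2A genes, whose proteins pair with H2B, went in either direction. H2AC21, in the cluster of chromosome 1, was at 8.57, 8.52 and 8.52 in DSM OE and at 8.62, 8.83 and 8.90 in DAXX OE arrays. The DSM OE arrays lay within a narrow range below all DAXX OE arrays, with a difference of -0.24 ± 0.10 (SE, 1.18-fold lower). Without DAXX OE replicate 1 the difference was -0.33 with an adjusted p of 0.0321 (limma), the single call among the 42 genes in that fit, where 0.374% of all genes were called lower and 0.872% higher. After cyclic loess, which evens out the compression by signal, its difference was -0.37 with an adjusted p of 0.0958.

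H2AC13 was at 6.36, 6.21 and 6.37 in DSM OE and at 6.11, 5.90 and 6.06 in DAXX OE arrays. All DSM OE arrays were above all DAXX OE arrays, with a difference of 0.29 ± 0.09 (SE, adjusted p 0.682, limma), and of 0.34 without DAXX OE replicate 1 (adjusted p 0.0997). Clusters that carried H2AC13 among 6 H2A symbols differed by 0.02, 0.17 and 0.30, each with overlapping groups. Without DAXX OE replicate 1 those clusters differed by -0.002, -0.02 and 0.06. H2AC14 read 3.93, 3.94 and 3.97 in DSM OE and 3.59, 3.69 and 3.85 in DAXX OE arrays, all under the background median. Among the others, H2AC20 had an interval from -0.25 to 0.14, H2AC25 a difference of -0.16 and H2AC6 one of 0.11, which turned to -0.02 without DAXX OE replicate 1.

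The 15 core H2B genes had a median difference of -0.02, with 5 above 0 and 10 below. H2BC15 had the widest difference, at 5.79, 5.57 and 5.82 in DSM OE and 5.14, 5.51 and 5.54 in DAXX OE arrays. The groups were separated by a small gap between DSM OE replicate 2 and DAXX OE replicate 3, and the difference of 0.33 ± 0.13 (SE, 1.26-fold higher) was 0.20 without DAXX OE replicate 1. H2BC26, an H2B gene of chromosome 1 outside the main histone clusters, was at 6.12, 6.31 and 6.29 in DSM OE and at 6.59, 6.38 and 6.37 in DAXX OE arrays, a difference of -0.21. H2BC1, known as a testis gene, read between 2.93 and 3.01 in DSM OE and between 3.13 and 3.22 in DAXX OE arrays, below background throughout. H2BC12 (0.04, interval -0.17 to 0.24) and H2BC11 (-0.02, interval -0.27 to 0.23) stayed within 1.3-fold. The 2 clusters of H2BC11, with signals of their own, gave differences of -0.02 and -0.04. H2BC14 had a difference of 0.20 with overlapping groups, and of 0.07 without DAXX OE replicate 1.

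Linker histone genes covered a similar range, from -0.25 to 0.23, with 5 of 9 above 0. H1-2 and H1-4, H1 forms of dividing somatic cells, differed by 0.00 (interval -0.27 to 0.27) and 0.01 (interval -0.20 to 0.22). H1-1 was at 4.74, 4.78 and 4.55 in DSM OE and at 4.92, 4.99 and 4.90 in DAXX OE arrays. Its groups did not overlap (difference -0.25 ± 0.09, SE), and its signal was close to background. H1-10, a form made outside S phase, was at 8.23, 8.18 and 8.06 in DSM OE and at 7.62, 8.04 and 8.13 in DAXX OE arrays, where replicate 1 was the lowest; its difference was 0.23, and 0.07 without that array. H1-8, the oocyte form, was at 6.54, 6.54 and 6.52 in DSM OE and at 7.11, 6.56 and 6.56 in DAXX OE arrays, so that its difference was -0.22, and -0.03 without the same array. Of the H4 genes, H4C3 differed by -0.04 (interval -0.24 to 0.16) and H4C7 was under background. The pseudogenes H1-9P, H2AC2P and H2BC20P differed by -0.07, -0.15 and -0.03, and H1-10-AS1 by -0.01.

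**Figure D3:**
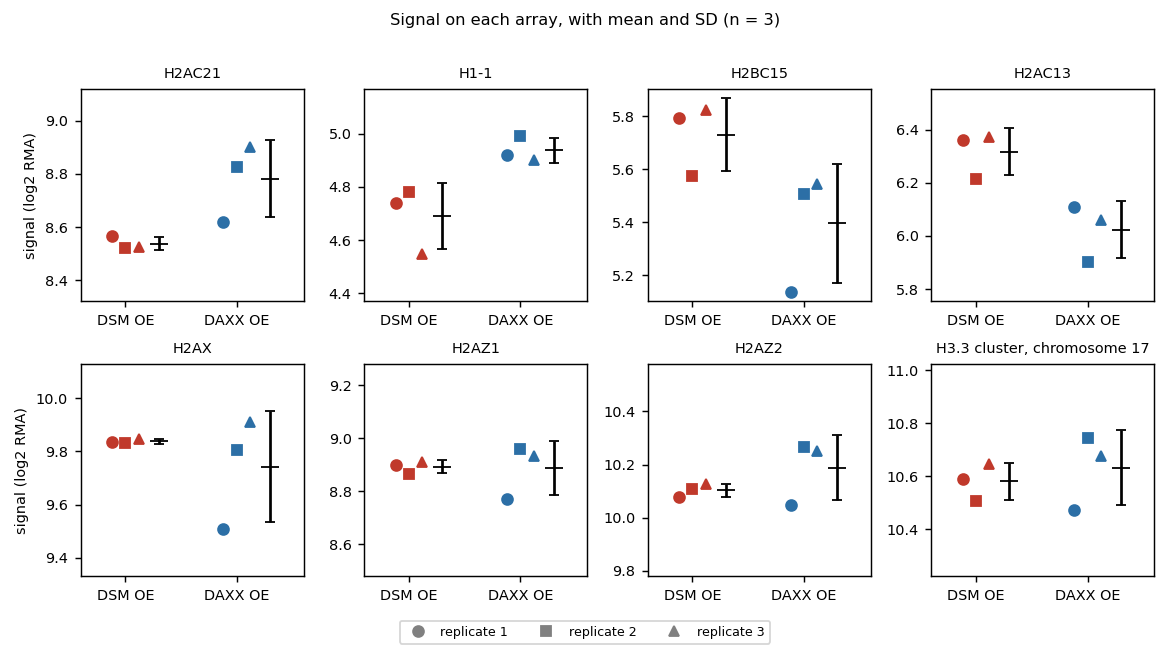
Log2 signal on each array for 7 histone genes and the H3.3 cluster of chromosome 17, DSM OE (red) left of DAXX OE (blue), with the mean and SD of 3 arrays in black; each panel spans the same height. The groups do not overlap for H2AC21 and H1-1 (lower in DSM OE) or H2BC15 and H2AC13 (higher in DSM OE), and they overlap in the other 4 panels.

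Without DAXX OE replicate 1, more of the genes with high signal were below 0: 17 of the 20 histone genes over 7, against 11 over 6 arrays. The median of the 42 genes became -0.04, with 28 below 0 (26 of the 37 above background), and the median of the 20 genes over 7 was -0.07, whereas 45.4% of all genes over 7 were below 0 and their median was 0.01. After cyclic loess over 6 arrays, the medians over 7 were -0.10 for the histone genes and -0.001 for all genes. Core H2B genes were below 0 in 12 of 15 cases (median -0.11). The groups no longer overlapped in the lower direction for 13 of 42 genes, against 13.5% of all genes, and in the higher direction for the same 3 genes as over 6 arrays, against 18.1%. The 13 were H2AC20, H2AC21, H2AZ1, H2AZ2, H1-1, H1-2, H1-8 and the H2B genes H2BC1, H2BC3, H2BC5, H2BC11, H2BC17 and H2BC26. Of the 20 genes over 7, 9 were among them, where 16.6% of all genes over 7 were. Apart from H2AC21, none of the 13 passed the threshold in that fit.

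A further 40 clusters carried several symbols that included a histone gene. Probes in these clusters may bind mRNAs of several copies, so each value stands for a family and not for a gene. None was called over 6 arrays, where they were fitted beside the 22465 genes (lowest adjusted p 0.682, limma). Their differences had a median of -0.05, with 14 above 0 and 26 below, and without DAXX OE replicate 1 the median was -0.10, with 34 of 40 below 0, no call and a lowest adjusted p of 0.102. No background cut was applied to these clusters, whose group means ran from 4.25 to 12.62.

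H3.3, the form that DAXX carries, was covered by 2 clusters. The cluster of chromosome 1 was at 9.40, 9.32 and 9.43 in DSM OE and at 9.23, 9.50 and 9.47 in DAXX OE arrays (difference -0.02, interval -0.25 to 0.21). The cluster of chromosome 17 was at 10.59, 10.51 and 10.65 in DSM OE and at 10.47, 10.75 and 10.68 in DAXX OE arrays (difference -0.05, interval -0.28 to 0.18). In both, DAXX OE replicate 1 was the lowest of the 6 arrays, and the intervals lay within 1.3-fold. Without that array the differences were -0.10 and -0.13, with adjusted p of 0.378 and 0.331 (limma). The 3 clusters of H3.2 differed by -0.05 to -0.12 over 6 arrays and by -0.17 to -0.22 without DAXX OE replicate 1, with no call.

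The 9 clusters of H3.1, the replication-dependent form, were between -0.21 and 0.33, with 6 below 0. The highest of them, a cluster of chromosome 6 shared by 10 genes, was at 7.27, 7.34 and 7.12 in DSM OE and at 6.82, 6.96 and 6.97 in DAXX OE arrays, without overlap, and had a difference of 0.28 without DAXX OE replicate 1 (adjusted p 0.133, limma). The 13 clusters of H4 had a median of 0.01 over 6 arrays, with 7 above 0, and of -0.14 without DAXX OE replicate 1, with 11 below 0. Of the 40 clusters, the groups did not overlap over 6 arrays for 2 in the higher direction, 1 of H3.1 and 1 of H4. In the lower direction they did not overlap for 3, all of H4, against 13.7% (higher) and 5.5% (lower) of all genes. The mean signals of these 3 were 4.82, 5.06 and 6.66 in DSM OE and 5.00, 5.23 and 6.85 in DAXX OE cells, so that most were close to background.

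**Figure D4:**
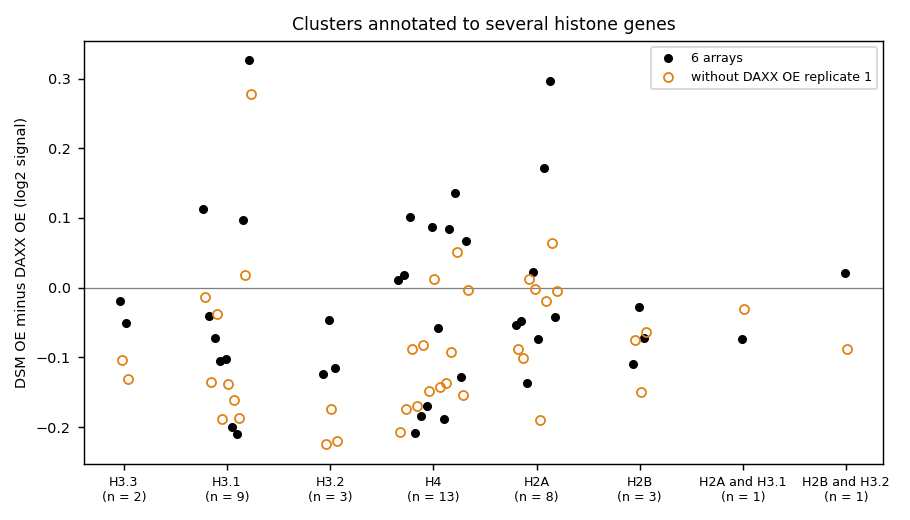
Difference between DSM OE and DAXX OE cells (log2 signal) for the 40 clusters annotated to several histone genes, by family, over 6 arrays (black) and without DAXX OE replicate 1 (open orange). Over 6 arrays 26 of 40 lie below 0, and 34 of 40 do so without that array.

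Histone genes sit in groups, and 27 of the 42 were on chromosome 6, in 4 blocks when a gap of over 200000 bases began a new block in RefSeq order. The last block, of H2BC13, H2AC13, H2AC14, H2BC14, H2BC15, H2AC16, H1-5 and H2BC17, had a median difference of 0.16, with 6 of 8 above 0, and without DAXX OE replicate 1 a median of 0.13, again with 6 of 8 above 0. After cyclic loess its median was 0.15. H2AC14 and H1-5 were not above background, and the other 6 genes of the block had a median of 0.16 over 6 arrays, 0.14 without DAXX OE replicate 1 and 0.13 after cyclic loess, with 4 of 6 above 0 in each. Of these, H2AC13, H2BC13, H2BC15 and H2AC16 had mean signals of 6.17, 6.01, 5.56 and 5.35, below the 6.64 of the oocyte gene H1-8. The block held the 3 histone genes whose DSM OE arrays all lay above the DAXX OE arrays. The block before it had a median of 0.04 over 3 genes, which turned to -0.02 without DAXX OE replicate 1 and to -0.10 after cyclic loess. The largest block, of 13 genes, had a median of -0.03, with 8 below 0, and of -0.08, with 11 below 0, without DAXX OE replicate 1. On chromosome 1, the 5 genes of the first block (HIST2H2BF, H2BC20P, H2BC21, H2AC20 and H2AC21) had a median of -0.03, and -0.09 with 5 of 5 below 0 without that array. H2AC25 and H2BC26, apart from them, were both lower, with a median of -0.18. The blocks were drawn after the values were seen, and the difference between blocks was not tested.

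**Figure D5:**
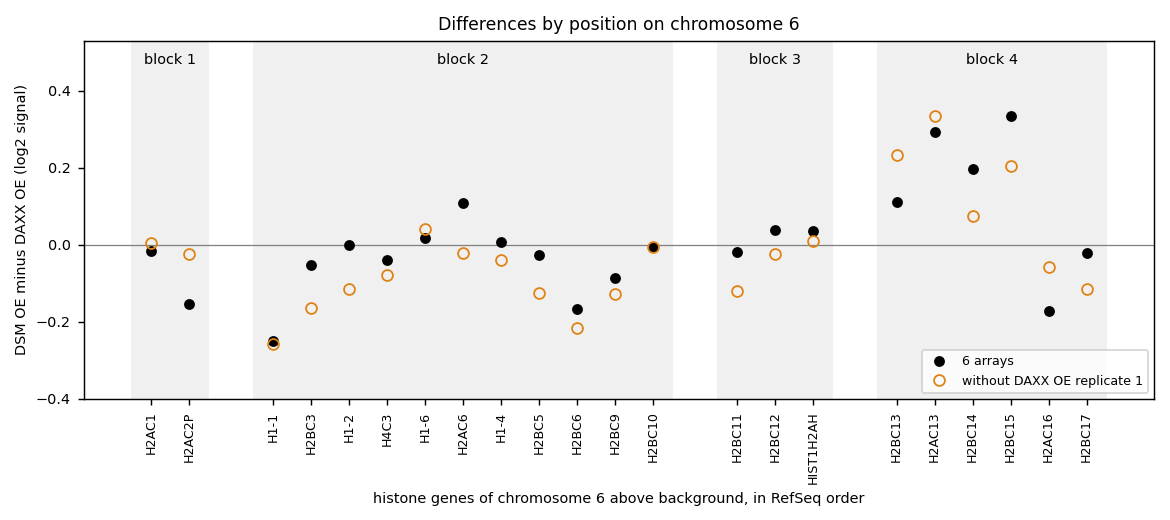
Difference between DSM OE and DAXX OE cells (log2 signal) for the 22 histone genes of chromosome 6 above background, in RefSeq order, over 6 arrays (black) and without DAXX OE replicate 1 (open orange); grey bands are blocks. In block 4, 4 of 6 genes lie above 0 in both settings, and in block 2, 7 of 11 lie below 0 over 6 arrays and 10 of 11 without that array.

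An H2A and an H2B gene often share a promoter and are copied away from each other. There were 5 such pairs among the 36 genes with a listed promoter, with 214 to 244 bases between the starts. In 3 of these pairs the genes were above background, and their differences had the same sign in 3 of 3 pairs over 6 arrays, without DAXX OE replicate 1 and after cyclic loess. H2AC13 and H2BC13 differed by 0.29 and 0.11, H2AC25 and H2BC26 by -0.16 and -0.21, and H2AC20 and H2BC21 by -0.05 and -0.02. Mean signals of H2AC13, H2BC13, H2AC25 and H2BC26 were 6.17, 6.01, 6.19 and 6.34, below the 6.64 of the oocyte gene H1-8. The share of same-sign pairs among other genes was not counted, so nothing is read from the 3 of 3. In the pair of H2AC14 and H2BC14 and in that of the testis genes H2AC1 and H2BC1, 1 gene was above background on no array, so no sign is read from them. HIST1H2AH, in the block of H2BC12 on chromosome 6, had no listed promoter, so a promoter shared with H2BC12 could not be searched for. HIST1H2AH and H2BC12 differed by 0.04 and 0.04, by 0.01 and -0.02 without DAXX OE replicate 1, and by -0.10 and 0.03 after cyclic loess.

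The machinery that makes histone mRNA was read from 27 genes for its transcription, 3′ end processing and decay. None was called (0.0623% of all genes), the median difference was 0.12 with 22 of 27 above 0, and without DAXX OE replicate 1 it was -0.01 with 12 of 27 above 0. SLBP, which binds the stem-loop, averaged 9.09 ± 0.04 in DSM OE and 9.14 ± 0.07 in DAXX OE cells (SD, n = 3 each). MIF4GD, a partner of SLBP in translation, averaged 8.43 ± 0.06 in DSM OE and 7.96 ± 0.35 in DAXX OE cells, a difference of 0.48 that was 0.28 without DAXX OE replicate 1 (adjusted p 0.682 and 0.0937, limma). The cyclins E, which drive entry into S phase with CDK2, differed by 0.25 (CCNE1) and -0.07 (CCNE2), and by 0.13 and -0.19 without DAXX OE replicate 1.

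Of 28 histone chaperones and exchange factors, none was called over 6 arrays (median 0.08, 21 above 0), and DAXX was the single call without DAXX OE replicate 1 (median -0.02, 11 above 0). These genes had signals over 7, where the median over all genes was 0.10 over 6 arrays and 0.01 without that array. ASF1A, a chaperone of H3 and H4, differed by 0.30, its paralogue ASF1B by -0.09 and NAP1L1, a chaperone of H2A and H2B, by -0.08, with adjusted p of 0.682, 0.682 and 0.719 (limma), and by 0.17, -0.16 and -0.12 without DAXX OE replicate 1. Of 8 further histone genes outside these families none was called, with CENPA, the centromeric H3, at 8.30 and 8.16 in DSM OE and DAXX OE cells, MACROH2A1 at 8.14 and 8.04, MACROH2A2 at 6.29 and 6.35, and H3-4 at 7.89 and 7.96. With DAXX OE replicate 1 left out, the differences of these 4 were 0.04, 0.01, 0.00 and -0.13.

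Genes of S phase, when histone mRNA is made, showed no call among 32 (median -0.01, 17 below 0). Without DAXX OE replicate 1 their median was -0.09, with 27 of 32 below 0 and no call, which stands beside the 28 of 42 histone genes below 0 in that setting, where 47.6% of all genes were. DTL, a ubiquitin ligase factor of S phase, differed by -0.17 and MCM2, a subunit of the replicative helicase, by -0.09, while MCM3, of the same helicase, differed by 0.22 and GINS4 by 0.32. Without DAXX OE replicate 1 these values were -0.26 (DTL), -0.15 (MCM2), 0.11 (MCM3) and 0.11 (GINS4). Among 19 genes of G2 and M phase 19 were above 0 (median 0.16, no call), with PLK1, a mitotic kinase, at 0.27 and CDC25C at 0.35. Without DAXX OE replicate 1 the median was 0.03, with PLK1 at 0.20 and CDC25C at 0.18. Of 9 genes of quiescence and growth arrest none was called (median 0.11, and 0.02 without that array), with SESN1 at 0.24, CCNG2 at 0.20, GADD45A at -0.02 and CDKN1A, which codes for the p21 inhibitor, at -0.10. With that array left out these were 0.11, 0.08, -0.12 and -0.02. The part of cell cycle phase in the histone values was not tested.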

How the data were processed

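Total RNA (200 ng per array) of 6 MDA-MB-231 samples was hybridised to the Affymetrix Human Transcriptome Array 2.0, as 1-colour arrays. The deposited values were log2 signals that the authors normalised by RMA, with Affymetrix Expression Console 1.3 named in the submitters' processing notes. The study's methods mention ComBat for arrays collected at different times, and no source used here says whether it was applied to these arrays. Of 70523 rows, 25324 had a gene symbol in the platform annotation, 23781 of them a single one, and the brightest cluster per symbol gave 22465 genes. Raw scanner intensities were not used here, and precision is limited by how few arrays there are.

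DSM OE was compared with DAXX OE over all genes with limma 3.58.1 (R 4.3.3; lmFit, eBayes, no covariates, 2-sided), with Benjamini-Hochberg adjustment over all 22465 genes and a threshold of 0.05. The script was tested on simulated data with larger changes than those of the histone genes and without a compressed array. Power for changes of the size seen here was not tested. Gene order and promoters were from RefSeq (GRCh38.p14), matched by symbol, 2 of them by current names (H2AC12 for HIST1H2AH, H2BC18 for HIST2H2BF). The platform annotation's build is not given.

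The 42 genes, the gene lists and the tests were chosen with earlier results of these data known. The genes named were those past the threshold, the H2A variants, the 2 genes of highest mean signal per histone class, the 6 widest differences in each direction (those without overlap between groups first), in each other list the genes past the threshold and those with the 2 lowest p-values per direction, and DAXX. The blocks, shared promoters, motifs, clusters with several symbols and genes over a signal of 7 were described after the values were seen.

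Alternatives were leaving out each array, the replicate number as a block, median centring, quantile and cyclic loess normalisation, trended and robust moderation, only genes above the median signal, the mean of a gene's clusters, the methods' t-test and, added after the data were seen, the sets without pseudogenes and H1-10-AS1 and without genes at background. Replicate numbers were not taken as pairs, and no columns of other series were in the table.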

Additional observations from a re-analysis of the deposited data

How the results depend on the processing

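Among the alternative values for single genes above background, 251 kept their direction and side of the threshold, 21 reversed and 2 passed it (H2AC21 and DAXX, without DAXX OE replicate 1). Histone genes past the threshold numbered 0 in every setting except without DAXX OE replicate 1, so that leaving out each array gave 0 to 1. At a fold over 1.3 and an unadjusted p under 0.05 the count was 0 to 1 when leaving out each array, the 1 being H2BC15 without DSM OE replicate 2, DAXX OE replicate 2 or DAXX OE replicate 3. The share of all genes at these thresholds was not counted in those fits, so nothing is read from this count. Non-overlapping groups numbered 8 over 6 arrays, against 13.7% of all genes in the higher and 5.5% in the lower direction. Without DAXX OE replicate 1 they numbered 16, against 18.1% and 13.5%. They numbered 8 to 12 without 1 of the other arrays, 13 after cyclic loess and 1 among the 20 histone genes above the median signal. For these last settings the share of all genes was not counted, so nothing is read from their numbers. Calls in the lists of histone mRNA processing, chaperones and S phase numbered 0 to 1 when leaving out each array. The median difference of the histone genes was between -0.04 and 0.01 when leaving out each array, -0.06 after quantile normalisation and -0.02 without the pseudogenes and H1-10-AS1 (38 genes). Among the 37 genes above background on at least 1 array, 0 were called and the median was -0.02. Over 6 arrays 6 of them had groups that did not overlap, where 13.7% of all genes did so in the higher and 5.5% in the lower direction. Signs near 0 reversed, and the cause was not tested: leaving out each array gave H1-2 -0.12 to 0.0705, H1-4 -0.0393 to 0.0648, H2AC6 -0.0213 to 0.21, H2AX -0.02 to 0.18, H2AZ1 -0.0539 to 0.0408, H2BC11 -0.12 to 0.0343 and H2BC12 -0.0244 to 0.085. Quantile normalisation gave H1-2 -0.10, H1-4 -0.0158 and H2AZ1 -0.12. Cyclic loess gave H1-2 -0.12, H2AX -0.0011 and H2AZ1 -0.12. Median centring gave H1-2 -0.002. With the replicate number as a block, 0 histone genes were called and the median was -0.02, while the calls over all genes went to 40 with the block, against 14 without it. Arrays of the same number did not deviate together (correlations -0.05, -0.30 and 0.17), so the numbers were not taken as pairs, and the block changed no call among the histone genes. The methods' t-test gave 247 genes at their fold and p thresholds, 0 of them histone genes, and 1 gene after Benjamini-Hochberg adjustment. Single-symbol clusters may still bind mRNAs of near-identical copies, 6 of 42 genes were not above background on every array, and 3 arrays per group left bounds as far as 0.65 from 0 on the log2 scale.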
